A study of Mus musculus with 12 samples.

Results

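The 9 enzyme genes followed here were Cs, Idh2, Idh3a, Idh3b, Ogdh, Dlst, Suclg1, Fh1 and Mdh2, which encode proteins of the mitochondrial citrate cycle. They were taken by symbol from both deposited tables, which were joined by Ensembl identifier. All 9 of the 9 listed genes were present among 22935 genes, and all 9 were among the 14146 genes that passed the filter on low counts. The cells were BV2, an immortalised mouse microglial line grown alone in culture. One group received oxy-haemoglobin (oxy-Hb, 10 µM) with C3a, labelled 20 ug/ul, and is called C3a below. Another received the same oxy-Hb dose with C3aRA (50 µM), an abbreviation the labels do not spell out. The group both were set against received oxy-Hb (10 µM) alone. Each group had 3 libraries. Samples given PBS were not analysed here. All 3 groups carried oxy-Hb, so the values describe additions to oxy-Hb and not the effect of oxy-Hb itself. The labels state neither the length of treatment nor whether replicates were separate cultures, so the spread behind each p-value may be technical.

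The citrate cycle oxidises acetyl-CoA, made from pyruvate, fatty acids or amino acids, to carbon dioxide and passes the electrons to the respiratory chain. Citrate synthase opens it by joining acetyl-CoA to oxaloacetate, and malate dehydrogenase closes it by restoring oxaloacetate. In macrophages and microglia the cycle also supplies citrate for lipid synthesis, succinate as a signalling metabolite and the precursor from which the enzyme of Acod1 makes itaconate.

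Library totals ran from 12934794 to 20479002 counts, so 3 counts, the level used as a floor, corresponded to 0.146 to 0.232 CPM, the counts of a gene scaled to a common library total. Levels below are CPM after TMM scaling, a correction for differences in library composition. For cell identity, 11 marker genes of microglia and macrophages were examined, and all had counts in every library. Their summed level was 2103 to 2639 CPM in C3a libraries, 2021 to 2155 in C3aRA libraries and 1873 to 2063 in oxy-Hb libraries. Much of that sum came from Cd68 (780 to 1070 CPM), while Cx3cr1 had 3.71 to 10.6 CPM. Because the list covers both cell types, the sum does not tell microglia from other macrophages. Cd68, Ptprc, Fcer1g and Tyrobp were high, whereas the homeostatic microglia markers Tmem119 (0.943 to 2.33 CPM) and P2ry12 (0.236 to 3.76 CPM) were near the floor, as was Aif1 (0.754 to 2.9 CPM). Few listed markers of other cells were among the genes counted. They were 1 of 6 for neurons (Tubb3), 1 of 5 for astrocytes (Gfap) and 1 of 7 for endothelial cells or fibroblasts (Pecam1). For red cells they were 2 of 6 (Hba-a1 and Alas2). Each of these 4 sets reached at most 1.66 CPM in any library, and Gfap, Tubb3 and Hba-a1 were at 0 in at least 1 library. The oligodendrocyte markers Cnp and Mbp summed to 27.4 to 33.8 CPM. One library stood apart. C3a replicate 2 lay at 76.3 on the first principal component, against -23.8 to 10.8 for the other 8 libraries. Its 81 ribosomal protein genes took 59865 CPM together, against 35103 to 41704 CPM elsewhere. Mitochondrially encoded genes held 5.16% to 6.06% of counts, with the highest share in the same library. The tests were also run without this library, and values from those fits are given below where they differed most.

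The 9 genes lie on 9 different chromosomes of GRCm38, so no members neighbour each other. RefSeq start regions (GRCm38.p6), running from 250 bases before to 50 after a transcription start, were matched for 8 of the 9 genes. The 3 shown here were chosen for the results they go with. Idh2 and Suclg1 had the largest fold changes with C3a, and Dlst was the only member with a match to the ETS or antioxidant response letters. Each is written in the gene's own direction with matches to CCGGAAGT (ETS), TGACNNNGC (antioxidant response), TCAAGGTCA (ERR), GCGC, any base and TGCGC (NRF1) and CCAAT, on either strand, in capitals. The Idh2 window is chr7:80115301-80115600 on the minus strand, the Suclg1 window chr6:73248255-73248554 on the plus strand and the Dlst window chr12:85110583-85110882 on the plus strand.
Idh2: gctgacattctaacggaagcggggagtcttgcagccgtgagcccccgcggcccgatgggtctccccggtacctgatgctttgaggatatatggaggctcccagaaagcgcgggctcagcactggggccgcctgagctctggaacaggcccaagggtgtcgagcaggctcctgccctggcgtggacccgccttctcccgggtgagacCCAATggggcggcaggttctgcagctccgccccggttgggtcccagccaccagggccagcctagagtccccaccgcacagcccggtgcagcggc
Suclg1: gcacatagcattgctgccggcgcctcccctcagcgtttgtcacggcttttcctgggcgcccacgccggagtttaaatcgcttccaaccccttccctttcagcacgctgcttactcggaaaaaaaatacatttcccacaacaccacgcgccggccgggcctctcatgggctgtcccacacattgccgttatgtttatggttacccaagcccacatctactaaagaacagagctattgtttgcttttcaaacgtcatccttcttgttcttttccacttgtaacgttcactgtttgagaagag
Dlst: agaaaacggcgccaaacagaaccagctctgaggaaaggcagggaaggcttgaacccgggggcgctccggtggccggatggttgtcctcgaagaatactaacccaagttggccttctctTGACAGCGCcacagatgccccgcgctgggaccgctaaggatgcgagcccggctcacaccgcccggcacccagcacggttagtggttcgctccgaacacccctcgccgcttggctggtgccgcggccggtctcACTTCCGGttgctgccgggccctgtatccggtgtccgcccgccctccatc

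The Idh2 window held CCAAT at position -44 from the start, and the Suclg1 window held none of the letters searched. The Dlst window held TGACAGCGC at position -132 and, at the start itself, ACTTCCGG, the reverse complement of the ETS letters. Over the 8 matched members, with Ogdh counted if any of its 6 windows matched, CCAAT was found in 5, against 37.4% of 32851 mouse start regions, and the Sp1 letters GGGCGG, left in lower case, in 6, against 35.7%. The ETS and antioxidant response letters were each found in 1 of 8 members, against 3.89% and 12.4% of start regions. NRF1 and ERR letters were found in 0 of 8, against 4.6% and 0.423%. The members were counted per gene and the start regions per window, and a gene with several windows has more occasions to match. The member counts and these shares are therefore not like for like. These are counts of letters and not of bound sites.

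Levels were first compared between genes per kilobase of the longest protein-coding transcript, since the transcripts ranged from 1456 bases (Mdh2) to 4127 bases (Ogdh). Mdh2 was the most abundant, with 266 ± 18.8 CPM per kilobase in C3a libraries, 231 ± 12.3 in C3aRA libraries and 236 ± 25.8 in oxy-Hb libraries (SD, n = 3 each). Dlst and Idh3b followed, with 194 and 168 CPM per kilobase in C3a libraries, 195 and 166 in C3aRA libraries and 173 and 149 in oxy-Hb libraries. In oxy-Hb libraries Mdh2, Dlst, Idh3b, Idh3a and Cs were ordered from high to low without overlap between neighbours. Cs, Idh2 and Suclg1 overlapped their neighbours, at 92.5, 85.8 and 83.8 CPM per kilobase. Ogdh was the lowest member in all 3 groups, with 35.2 ± 5.45 CPM per kilobase in C3a libraries, 43.2 ± 2.85 in C3aRA libraries and 40.9 ± 2.60 in oxy-Hb libraries (SD, n = 3 each). It did not overlap Fh1, the next gene up, in C3a or C3aRA libraries, but did in oxy-Hb libraries. These per-kilobase levels assume that the longest transcript was the one counted.

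The remaining values are CPM without division by length. Citrate synthase (Cs, ENSMUSG00000005683, chr10:128337734-128362479) had 296, 295 and 315 CPM in C3a libraries, 274, 289 and 296 CPM in C3aRA libraries, and 288, 273 and 252 CPM in oxy-Hb libraries. All C3a libraries lay above all oxy-Hb libraries, but the gap was small. The log2 fold change was 0.16 ± 0.09 (SE) for C3a against oxy-Hb, which did not pass the test (adjusted p = 0.317). Csl, a gene with 91.9% identity to the Cs transcript over 1522 bases, was not analysed here, so reads shared with it are an uncertainty of this value.

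Isocitrate is oxidised by a pair of mitochondrial systems. Idh2 (ENSMUSG00000030541, chr7:80094846-80115392) makes NADPH, which keeps glutathione reduced, and had 179.9, 208 and 195 CPM in C3a libraries, 176, 187 and 184 CPM in C3aRA libraries, and 155, 153 and 141 CPM in oxy-Hb libraries. Each library with an addition lay above each oxy-Hb library, and the C3a and C3aRA libraries overlapped. Idh2 rose with C3a, by a log2 fold change of 0.37 ± 0.10 (1.30-fold, adjusted p = 0.0459), and was the only member to pass the test, an edgeR quasi-likelihood F test with Benjamini-Hochberg adjustment over all 14146 genes. With C3aRA its log2 fold change was 0.28 ± 0.10 (95% interval 0.08 to 0.49, adjusted p = 0.494). C3a and C3aRA differed by 0.09 ± 0.10 (95% interval -0.12 to 0.30). The Idh2 call is close to the threshold. It was kept without C3a replicate 1 (adjusted p = 0.0210) or C3a replicate 2 (0.00801), and lost without C3a replicate 3, any of the 3 C3aRA libraries or any of the 3 oxy-Hb libraries (0.0800 to 0.169). Its log2 fold change stayed between 0.32 and 0.44 over these 9 fits. Without C3a replicate 2, Idh2 also rose with C3aRA, with the same log2 fold change of 0.28 and an adjusted p of 0.0258.

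Idh3a and Idh3b encode the catalytic alpha and the beta subunit of the NAD-dependent isocitrate dehydrogenase, which feeds NADH to the respiratory chain. Idh3a (ENSMUSG00000032279, chr9:54586334-54604661) had 292, 339 and 364 CPM in C3a libraries, 263, 281 and 278 CPM in C3aRA libraries, and 262, 279 and 286 CPM in oxy-Hb libraries. The C3a libraries lay above all others, while C3aRA and oxy-Hb libraries overlapped closely. Its log2 fold change was 0.27 ± 0.10 for C3a against oxy-Hb (adjusted p = 0.133), -0.01 ± 0.10 for C3aRA against oxy-Hb and 0.28 ± 0.10 for C3a against C3aRA (adjusted p = 0.121). Leaving out C3a replicate 2 changed the fold changes little and the calls, with 0.25 against oxy-Hb (adjusted p = 0.0471) and 0.26 against C3aRA (adjusted p = 0.0331), and both calls were also made without C3a replicate 1 (adjusted p = 0.0370 and 0.0348), where 11.2% and 11.4% of all genes were called. Idh3b (ENSMUSG00000027406, chr2:130279309-130284547) had 260.2, 319 and 237 CPM in C3a libraries, 277, 266 and 263 CPM in C3aRA libraries, and 241, 249.98 and 230.0 CPM in oxy-Hb libraries. The high C3a value belonged to replicate 2. The log2 fold change with C3a was 0.18 ± 0.11 (adjusted p = 0.344), and 0.04 without that library. Idh3b, with a transcript of 1616 bases, shares 5 exon bases with Nop56 on the other strand, which had 49432 counts in all. Only reads over the shared bases cannot be told apart, because the sources used here do not give the strand setting.

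The 2-oxoglutarate dehydrogenase complex turns 2-oxoglutarate into succinyl-CoA. Ogdh (ENSMUSG00000020456, chr11:6291633-6356642), its decarboxylating subunit, had 154, 119.6 and 162 CPM in C3a libraries, 165, 183 and 187 CPM in C3aRA libraries, and 176, 174 and 157 CPM in oxy-Hb libraries. It was the only member whose mean was lower with C3a than with oxy-Hb alone, and its C3a libraries lay below all C3aRA libraries. Neither difference passed the test. The log2 fold change was -0.22 ± 0.12 for C3a against oxy-Hb (adjusted p = 0.278) and -0.30 ± 0.12 for C3a against C3aRA (adjusted p = 0.150). Its lowest value belonged to C3a replicate 2, without which the values were -0.10 and -0.18. Ogdh has the longest transcript of the members, and once length and base composition were corrected for its log2 fold change against oxy-Hb was -0.06, while the median of all genes moved to 0.11. Dlst (ENSMUSG00000004789, chr12:85110833-85134845) encodes the lipoylated succinyltransferase core of the complex. It had 563, 514 and 534 CPM in C3a libraries, 526, 547 and 543 CPM in C3aRA libraries, and 508, 480.4 and 443 CPM in oxy-Hb libraries. Both additions lay above oxy-Hb alone without overlap, with log2 fold changes of 0.17 ± 0.09 for C3a (adjusted p = 0.283) and 0.18 ± 0.09 for C3aRA (adjusted p = 0.664). The C3a and C3aRA levels of Dlst differed by -0.01 ± 0.09 (95% interval -0.21 to 0.20).

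Suclg1 (ENSMUSG00000052738, chr6:73248382-73276911) encodes the alpha subunit of succinate-CoA ligase, which is shared by the GTP-forming and ATP-forming enzymes. It had 153, 214 and 162 CPM in C3a libraries, 139, 148 and 144 CPM in C3aRA libraries, and 128, 136 and 117 CPM in oxy-Hb libraries. The C3a libraries lay above all others, and replicate 2 was far above the other pair. Suclg1 had the largest log2 fold change of the members with C3a, 0.47 ± 0.12 (1.38-fold), and just missed the test (adjusted p = 0.0501). Without C3a replicate 2 the log2 fold change was 0.30 and passed (adjusted p = 0.0173). It was 0.17 ± 0.12 for C3aRA against oxy-Hb (adjusted p = 0.748) and 0.29 ± 0.12 for C3a against C3aRA (adjusted p = 0.166), or 0.13 without C3a replicate 2.

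Fh1 (ENSMUSG00000026526, chr1:175600374-175625635) encodes fumarase, which hydrates fumarate to malate. It had 131, 166 and 139.6 CPM in C3a libraries, 127, 133 and 134 CPM in C3aRA libraries, and 120.2, 114 and 111 CPM in oxy-Hb libraries. All libraries with an addition lay above all oxy-Hb libraries. The log2 fold change was 0.34 ± 0.11 with C3a (adjusted p = 0.0830), or 0.23 without C3a replicate 2 (adjusted p = 0.0738), and 0.19 ± 0.11 with C3aRA (adjusted p = 0.683). Mdh2 (ENSMUSG00000019179, chr5:135778480-135790398), the mitochondrial malate dehydrogenase, had 356, 409 and 396 CPM in C3a libraries, 327, 357 and 325 CPM in C3aRA libraries, and 359.9, 371 and 301 CPM in oxy-Hb libraries. The groups overlapped in both comparisons with oxy-Hb. The log2 fold change was 0.17 ± 0.11 with C3a (adjusted p = 0.345) and -0.04 ± 0.11 with C3aRA. Processed pseudogenes with 85.4% and 87.0% identity to parts of Mdh2 were not analysed here.

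**Figure D1:**
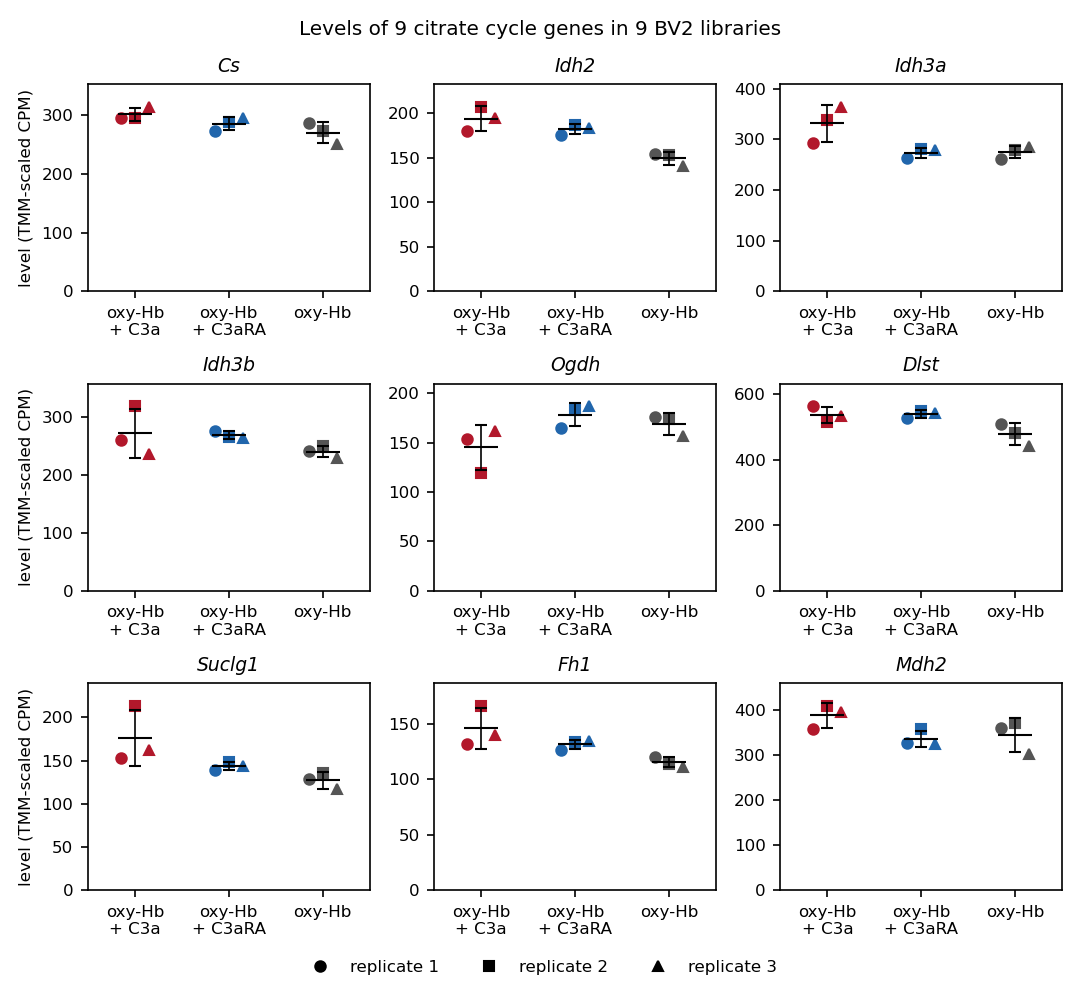
Level of each citrate cycle gene (y axis, TMM-scaled CPM) in the oxy-Hb with C3a, oxy-Hb with C3aRA and oxy-Hb groups, with 1 point per library, a line at the mean and bars of 1 SD (n = 3 each). Points of the first 2 groups lie above those of the last for Idh2, Dlst, Suclg1 and Fh1, and C3a replicate 2 (square) is the highest point for Idh2, Idh3b, Suclg1, Fh1 and Mdh2 and the lowest for Ogdh.

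The spread within a group reached its highest values in C3a libraries, but not for every member. Cs, Dlst and Mdh2 varied less in C3a libraries (3.67%, 4.54% and 7.06%) than in oxy-Hb libraries (6.70%, 6.93% and 10.9%), and the other members varied more. The coefficient of variation over 3 libraries was 3.67% to 18.6% in C3a libraries, 2.07% to 6.59% in C3aRA libraries and 3.94% to 10.9% in oxy-Hb libraries. C3a replicate 2 was the highest of the 9 libraries for 5 of 9 members. At the other end, oxy-Hb replicate 3 was the lowest for 7 of 9. Summed over the 9 genes, the level was 2385, 2583 and 2504 CPM in C3a libraries, 2272, 2391 and 2354 CPM in C3aRA libraries, and 2238, 2231 and 2038 CPM in oxy-Hb libraries. The C3aRA sums all lay above the oxy-Hb sums, and the lowest C3a sum lay just under the highest C3aRA sum. In RNA from whole cultures, fewer cells making a transcript and less of it per cell cannot be told apart.

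**Figure D2:**
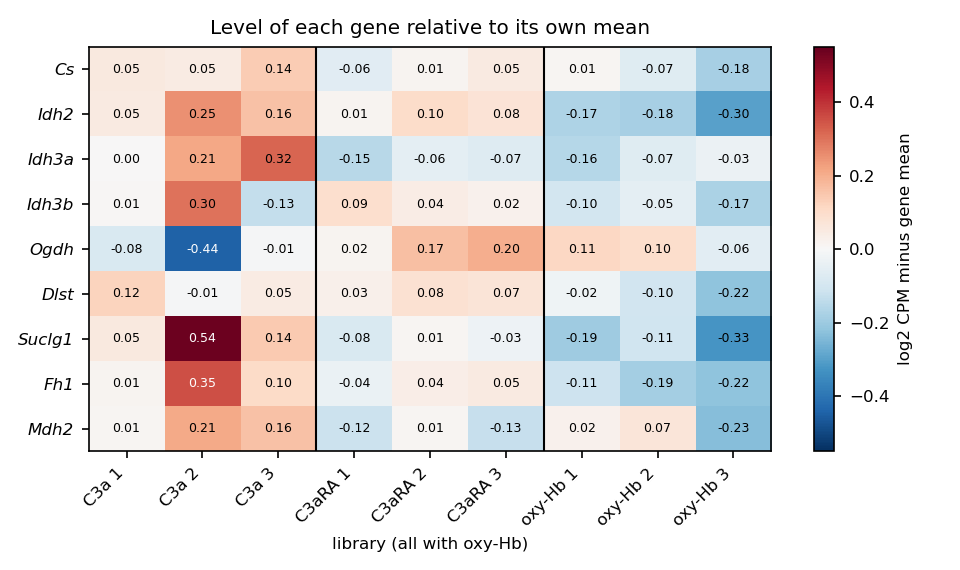
Level of each gene (rows) in each library (columns), as log2 CPM minus that gene's mean over the 9 libraries, with the scale from blue (below the mean) to red (above). The strongest cells are Suclg1 (0.54) and Ogdh (-0.44) in C3a replicate 2, and the oxy-Hb replicate 3 column is below the mean for all 9 genes.

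For C3a against oxy-Hb, which asks what the complement fragment adds to oxy-Hb, 8 of 9 members had a positive log2 fold change, and Ogdh had a negative one. Idh2 was called, while 3.94% of all tested genes were called, 0.905% higher and 3.04% lower. That split was 128 genes higher and 430 lower, and became 820 and 342 under the correction for length and base composition, or 34 and 664 under total count scaling. DESeq2 called 3 members, Idh2, Suclg1 and Fh1, beside 9.52% of all genes. Without C3a replicate 2, edgeR called Idh2, Idh3a and Suclg1, beside 9.55%, and without C3a replicate 1 it called these and Fh1, beside 11.2%. The median log2 fold change of the members was 0.18, against 0.00 over all tested genes, and 50.2% of all genes were positive. At an unadjusted p below 0.05 there were 4 members, Idh2, Suclg1, Fh1 and Idh3a, all higher with C3a, beside 24.1% of all genes. The C3a and oxy-Hb libraries did not overlap for 6 of 9 members (Cs, Idh2, Idh3a, Dlst, Suclg1 and Fh1), all higher with C3a, and 27.8% of all genes did not overlap (13.2% of all genes higher and 14.6% lower).

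For C3aRA against oxy-Hb, 7 of 9 members had a positive log2 fold change, with Idh3a and Mdh2 slightly negative. No member was called by edgeR, and 0% of all tested genes were. The lowest adjusted p among members was 0.494, for Idh2, which was also the only member with an unadjusted p below 0.05 (0.0109), beside 8.15% of all genes. DESeq2 also called 0 members, beside 0.134% of all genes. The median of the members was 0.16, against -0.01 over all genes, and 48% of all genes were positive. Libraries did not overlap for 5 of 9 members (Idh2, Idh3b, Dlst, Suclg1 and Fh1), all higher with C3aRA, beside 22.9% of all genes. The count of calls in this comparison changed with the libraries that shared the estimate of spread. With C3aRA and oxy-Hb fitted alone, Idh2 was called (log2 fold change 0.28, adjusted p = 0.0195), as were 4.43% of all genes, and without C3a replicate 2 it was again the only member called, beside 3.25% of all genes.

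Set directly against each other, C3a and C3aRA differed for no member by edgeR, while 6.19% of all genes were called, 2.87% higher and 3.32% lower. Of the 9 members, 7 had a positive log2 fold change, beside 50.7% of all genes, and their median was 0.09, against 0.01 over all genes. That median was 0.04 without C3a replicate 2, against -0.01 over all genes. DESeq2 again called 0 members, beside 11% of all genes. At an unadjusted p below 0.05 there were 3 members, Idh3a and Suclg1 higher with C3a and Ogdh lower, beside 24.2% of all genes, and these 3 were also the members whose libraries did not overlap, beside 28.8% of all genes. With C3a replicate 2 left out, 5 members did not overlap (Cs, Idh3a and Suclg1 higher, Idh3b and Ogdh lower), beside 42.55% of all genes, and Idh3a was called, beside 12.5% of all genes. The comparisons with oxy-Hb share the same 3 oxy-Hb libraries, so a low value in those libraries raises both fold changes.

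The authors' deposited table gives its own tests. Of 22935 genes, 508 had an adjusted p below 0.05 there for C3a against oxy-Hb (87 higher, 421 lower). For C3aRA against oxy-Hb there were 715 such genes (473 higher, 242 lower). For C3a against oxy-Hb none of the 9 members passed an adjusted p of 0.05 there, and the lowest were Suclg1 (log2 fold change 0.48, adjusted p = 0.0679) and Idh2 (0.38, adjusted p = 0.0724). For C3aRA against oxy-Hb the authors' deposited table lists Idh2 with a log2 fold change of 0.29 and an adjusted p of 0.00277. Dlst (0.0597) and Fh1 (0.0873) came next among members by adjusted p in the authors' deposited table.

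**Figure D3:**
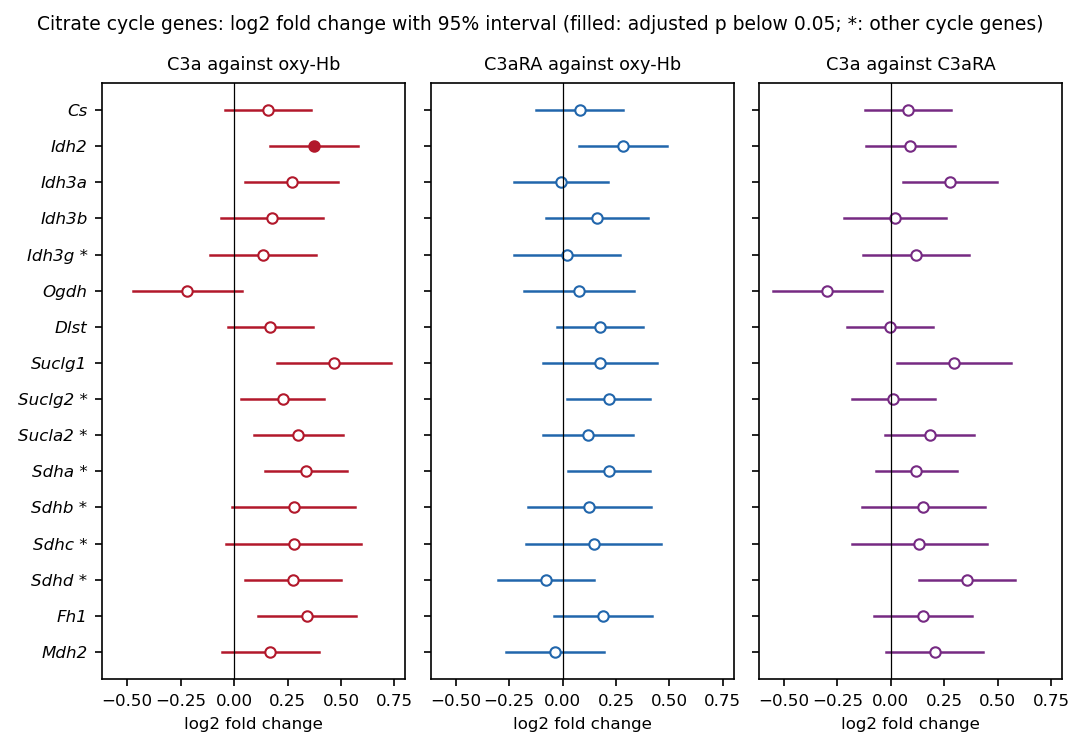
Log2 fold change (x axis) with its 95% interval for the 9 citrate cycle genes and 7 further cycle genes (marked with asterisks) in order of the cycle, for C3a against oxy-Hb, C3aRA against oxy-Hb and C3a against C3aRA. Filled points mark an adjusted p below 0.05, which Idh2 reaches in the first panel, where Ogdh is the only gene left of 0.

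Other nuclear genes of the cycle encode further subunits of the members' enzymes and succinate dehydrogenase. The 7 described here were all tested. Sdha, the flavoprotein of succinate dehydrogenase, had 487, 473 and 485 CPM in C3a libraries, 446, 449.8 and 435 CPM in C3aRA libraries, and 385, 362 and 397 CPM in oxy-Hb libraries. The 3 groups of Sdha did not overlap, and its log2 fold change was 0.34 ± 0.09 with C3a (adjusted p = 0.05002, just above the threshold) and 0.22 ± 0.09 with C3aRA (adjusted p = 0.565). For Idh3g, Sucla2, Suclg2, Sdhb, Sdhc and Sdhd the log2 fold change with C3a was 0.14 to 0.30, with none called. Several of these values moved without C3a replicate 2, to -0.015 for Idh3g, 0.07 for Sdhb, 0.05 for Sdhc and 0.18 for Sdhd, while Sdha (0.34, adjusted p = 0.00168), Suclg2 (0.24, adjusted p = 0.0443) and Sucla2 (0.25, adjusted p = 0.0447) were then called. Without C3a replicate 1, Sdha (adjusted p = 0.0446) and Sdhd (0.0341) were called. These fits without C3a replicate 2 or C3a replicate 1 called 9.55% and 11.2% of all genes. Of the 7 genes, edgeR called 0 in any comparison with all 9 libraries. An unadjusted p below 0.05 was reached by 4 for C3a against oxy-Hb, 2 for C3aRA against oxy-Hb and 1 for C3a against C3aRA. Of all genes, 24.1%, 8.15% and 24.2% reached it in these comparisons. DESeq2 called Sdha (adjusted p = 0.00301) and Sucla2 (0.0379) for C3a against oxy-Hb, beside 9.52% of all genes. For C3a against C3aRA, DESeq2 called Sdhd (adjusted p = 0.022), beside 11% of all genes. The 7 genes had a median of 0.28 for C3a against oxy-Hb, 0.13 for C3aRA against oxy-Hb and 0.13 for C3a against C3aRA. Their median without C3a replicate 2 was 0.18 for C3a against oxy-Hb, with 6 of 7 positive, and 0.025 for C3a against C3aRA, with 4 of 7 positive. Against C3aRA the lowest adjusted p was that of Sdhd, a membrane anchor of succinate dehydrogenase (0.36 ± 0.11, adjusted p = 0.0591). Sdhd was called there without C3a replicate 1 (adjusted p = 0.0164) or C3a replicate 2 (0.0209). Those 2 fits called 11.4% and 12.5% of all genes for this comparison. In the authors' deposited table, Sdha (adjusted p = 0.00837) and Suclg2 (0.0226) passed for C3aRA against oxy-Hb, among 715 of 22935 genes.

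Because scaling cancels within a library, 8 ratios between subunits or neighbouring steps were also computed per kilobase, of which 3 are described because their groups separated. Dlst over Ogdh was 5.47, 6.42 and 4.92 in C3a libraries, 4.77, 4.47 and 4.34 in C3aRA libraries, and 4.31, 4.12 and 4.22 in oxy-Hb libraries. The 3 groups did not overlap, with the ratio highest in C3a libraries and lowest in oxy-Hb libraries, and each of the 3 comparisons had the smallest p that 3 against 3 allows (0.1, exact two-sided permutation test). No such comparison can pass 0.05. Groups that do not overlap always give 0.1 in this test, so for ratios picked because they separated the p only restates the separation. How often ratios of other gene pairs separate was not counted. Idh2 over Idh3a, the NADP-dependent over the NAD-dependent enzyme, was 0.910, 0.906 and 0.790 in C3a libraries, 0.991, 0.982 and 0.977 in C3aRA libraries, and 0.873, 0.813 and 0.731 in oxy-Hb libraries. The C3aRA libraries lay above both other groups (exact permutation p = 0.1 each), and C3a and oxy-Hb libraries overlapped. Idh3a over Idh3b was 0.703, 0.665 and 0.963 in C3a libraries, 0.595, 0.661 and 0.661 in C3aRA libraries, and 0.679, 0.699 and 0.778 in oxy-Hb libraries, so that C3aRA libraries were the lowest. The other 5 ratios, among them Suclg1 over Suclg2 and Mdh2 over Cs, overlapped in all 3 comparisons. After the length and GC correction the C3a log2 fold changes were 0.23 for Dlst and -0.06 for Ogdh. The part of transcript length in the ratios themselves was not tested.

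**Figure D4:**
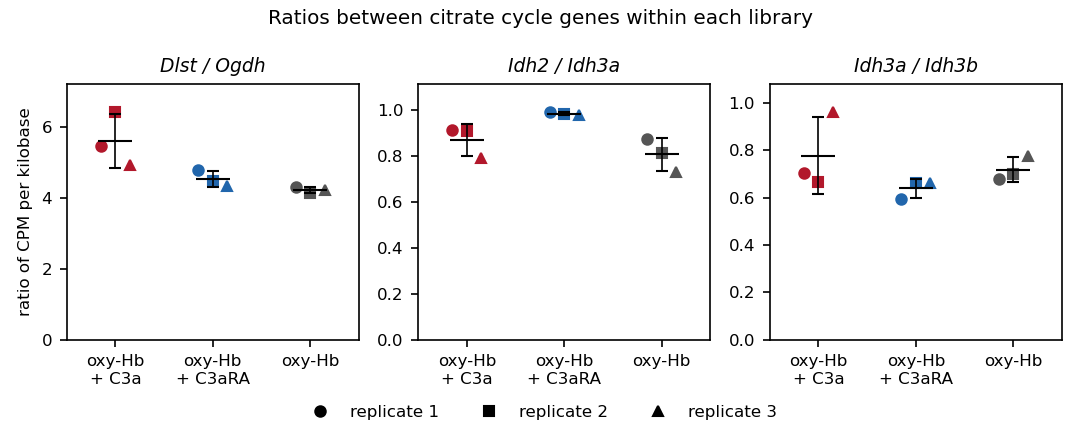
Ratio of CPM per kilobase (y axis) of Dlst to Ogdh, Idh2 to Idh3a and Idh3a to Idh3b in the oxy-Hb with C3a, oxy-Hb with C3aRA and oxy-Hb groups, with 1 point per library, a line at the mean and bars of 1 SD (n = 3 each). The Dlst to Ogdh ratio is at 4.92 to 6.42 with C3a, against 4.12 to 4.31 with oxy-Hb alone, and the Idh2 to Idh3a ratio is tightest and highest with C3aRA.

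Genes of pathways that feed or leave the cycle were counted beside the same shares of all genes called, 3.94% for C3a against oxy-Hb, 0% for C3aRA against oxy-Hb and 6.19% for C3a against C3aRA. In lists of 8 to 15 genes these shares amount to about 1 call or none. Of 13 tested genes of pyruvate entry (the pyruvate dehydrogenase complex, its kinases and phosphatases, pyruvate carboxylase and the carrier), 0 passed in any of the 3 comparisons, and the lowest p was that of Pdhx, a structural component of the complex (0.33 ± 0.10 for C3a against oxy-Hb, adjusted p = 0.0819). The alpha subunit Pdha1 had 0.18 ± 0.09 with C3a and 0.19 ± 0.09 with C3aRA, and the inhibiting kinase Pdk1 0.16 ± 0.11 with C3a and -0.11 ± 0.11 with C3aRA. None of these was called by edgeR with all 9 libraries. In the authors' deposited table Pdha1 passed for C3aRA against oxy-Hb (adjusted p = 0.0411), among 715 of 22935 genes. Pdk1 was called for C3a against C3aRA without C3a replicate 2 (0.34, adjusted p = 0.00425). Of 13 shuttle and cytosolic genes, 1 was called. Idh1, the cytosolic NADP-dependent isocitrate dehydrogenase, had 165, 216 and 186 CPM in C3a libraries, 140.3, 138 and 125 CPM in C3aRA libraries, and 148, 138 and 149 CPM in oxy-Hb libraries. It rose with C3a relative to C3aRA (log2 fold change 0.49 ± 0.11, adjusted p = 0.0236). The Idh1 call was lost without any 1 of the 3 C3aRA libraries (adjusted p 0.0840 to 0.112) and kept in the other 6 such fits, where without C3a replicate 2 the log2 fold change was 0.38. Idh1 was also called for C3a against oxy-Hb without C3a replicate 1 (0.48, adjusted p = 0.0196) or C3a replicate 2 (0.27, adjusted p = 0.0350). The citrate carrier Slc25a1 (-0.05 ± 0.12) and the citrate lyase Acly (0.15 ± 0.13) were not called with C3a against oxy-Hb. Without C3a replicate 2 the value was -0.14 for Slc25a1 and 0.29 for Acly, which was then called (adjusted p = 0.0142), as it was against C3aRA (0.39, adjusted p = 0.00104). The 13 shuttle and cytosolic genes then held 5 calls for C3a against oxy-Hb and 4 for C3a against C3aRA, beside 9.55% and 12.5% of all genes.

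Of 8 genes of anaplerosis and itaconate, 0 were called in any comparison. Acod1 had 466, 419.7 and 389.85 CPM in C3a libraries, 314, 308 and 373 CPM in C3aRA libraries, and 339, 322 and 322 CPM in oxy-Hb libraries. The C3a libraries of Acod1 lay above all others without passing the test, with log2 fold changes of 0.38 ± 0.11 against oxy-Hb (adjusted p = 0.0609) and 0.36 ± 0.11 against C3aRA (adjusted p = 0.0604). Both passed without C3a replicate 2, with log2 fold changes of 0.38 (adjusted p = 0.00291) and 0.36 (adjusted p = 0.00344). That fit called 9.55% and 12.5% of all genes in these comparisons. It was the only 1 of the 9 fits leaving out 1 library that called Acod1, and the highest adjusted p values among them were 0.203 and 0.238. Of 15 genes for lipoate, iron-sulphur clusters and the assembly of succinate dehydrogenase, 0 were called. Lipoate is a cofactor of Dlst, and iron-sulphur clusters are cofactors of Sdhb. All 15 were positive for C3a against oxy-Hb (median 0.26) and 14 for C3a against C3aRA (median 0.27). Of all genes, 50.2% and 50.7% were positive in these comparisons. Without C3a replicate 2 the counts were 12 (median 0.13) and 12 (median 0.14). The lowest p was that of Iba57, a low gene (1.69 ± 0.73 CPM in C3aRA libraries, SD, n = 3), with 1.17 ± 0.35 for C3a against C3aRA (adjusted p = 0.0629). Of 12 regulators of mitochondrial genes, Pprc1, a coactivator of the PGC-1 family, was called with all 9 libraries. It had 49.9, 42.1 and 53.5 CPM in C3a libraries, 61.9, 57.3 and 68.6 CPM in C3aRA libraries, and 72.1, 80.8 and 84.98 CPM in oxy-Hb libraries. Pprc1 fell with C3a against oxy-Hb (log2 fold change -0.71 ± 0.12, adjusted p = 0.00699), the opposite direction to 8 of the 9 enzymes. Of the 12 regulators 4 were positive in this comparison, beside 50.2% of all genes. The Pprc1 call with C3a was kept in all 9 fits that left out 1 library. Its log2 fold change with C3a was -0.42 after the length and GC correction, where the call was also kept (adjusted p = 0.0328). The fall was not particular to C3a, since all C3aRA libraries of Pprc1 also lay below all oxy-Hb libraries. That difference was not called by edgeR with all 9 libraries, but passed in the authors' deposited table (-0.34, adjusted p = 0.0196).

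The genes whose pattern over the 9 libraries was most like the members' mean profile were sought among 7402 genes that averaged 20 CPM or more. The measure was the root mean square difference of centred log2 CPM. The nearest were Tpp1, a lysosomal peptidase (0.038), Lcp2, a signalling adaptor (0.043), and Usp4, a deubiquitinase (0.043). Cs was closer to the profile than any other member (0.051), and Ogdh was the farthest (0.239). These 3 genes were not the nearest without C3a replicate 2, where Ppp2ca (0.025), Rnh1 (0.027) and Mtch2 (0.029) were.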

How the data were processed

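Polyadenylated RNA of BV2 cells was read as SMARTER mRNA-seq libraries, per the labels' protocols. The authors deposited raw read counts per Ensembl gene in a pair of tables of 22935 genes. The deposited columns also hold log2 fold changes and p-values, raw and adjusted. The builds GRCm38 and mm10 come from the submitters' processing notes. The sources used here do not name the aligner, counter, strand setting or the authors' test. Both tables carry the same oxy-Hb counts (0 differed), and all 9 libraries entered 1 fit. A spreadsheet had turned 9 symbols into dates, which were restored from identifiers. No libraries of the same group agreed within sampling noise.

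The counts were filtered with filterByExpr (minimum count 10), scaled with TMM and fitted in edgeR 4.0.16 (R 4.3.3) for a robust quasi-likelihood test, with 1 coefficient per group. A gene was called at an adjusted p (Benjamini-Hochberg, over all tested genes) below 0.05. The biological coefficient of variation was 15.8%. The code was checked on simulated counts. Of 1.25-fold changes, 4%, 2% and 6% were recovered for C3a against oxy-Hb, C3aRA against oxy-Hb and C3a against C3aRA. Of 1.5-fold changes, 34%, 40% and 56% were recovered. A gene not called is therefore not shown to be unchanged. Recovery at the members' own levels was not tested. Errors of levels are SDs, and errors and 95% intervals of log2 fold changes come from the fit. Floors cover counting error only. Transcript lengths came from GENCODE vM21 and start regions from RefSeq. Alternatives were other scalings and filters, DESeq2 1.42.0, limma-voom 3.58.1, each pair of groups alone, a replicate block, a length and GC correction (splines of 4 degrees of freedom) and leaving out each library.

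The members and gene lists were chosen with earlier results of these data known. The text names all members and 7 other cycle genes (some genes of the lists are not reported here), called genes of the other lists or the gene with the lowest p, a panel of Acod1, Idh1, Acly, Slc25a1, Pdha1 and Pdk1, and the 3 genes most like the members. Leaving out C3a replicate 2 from the likeness and overlap counts, and each library from the medians of lists and the tests of Itgam and Trem2, was added after seeing the data, and the 3 ratios described were picked after their values were seen.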

Additional observations from a re-analysis of the deposited data

How the results depend on the processing

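Of the 9 members, 1, 0 and 0 were called for C3a against oxy-Hb, C3aRA against oxy-Hb and C3a against C3aRA. With the alternatives that changed this, the cause was not tested. For C3a against oxy-Hb, 0 members were called with total count scaling or the 2 groups alone, beside 4.93% and 0.72% of all genes. Without a count filter or with the length and GC correction there were 2, beside 4.58% and 8.21%, and with DESeq2 3, beside 9.52%. For C3aRA against oxy-Hb there was 1 with the 2 groups alone, beside 4.43%. Leaving out 1 library gave 0 to 4, 0 to 1 and 0 to 1 members, and the 4 came without C3a replicate 1, beside 11.2%. Joining the length and GC correction with leaving out C3a replicate 2 gave 6, 5 and 1 members, beside 12%, 8.27% and 13.5%. All genes called numbered 558, 0 and 876 of 14146 tested (3.94%, 0% and 6.19%). Without a filter they were 1033, 8 and 1296 of 22537 (4.58%, 0.0355% and 5.75%). With DESeq2 they were 1346, 19 and 1559 (9.52%, 0.134% and 11%). With the 2 groups alone, 99, 603 and 118 genes were called of 13751, 13625 and 13488 (0.72%, 4.43% and 0.875%). The length and GC correction gave 1162, 0 and 1202 (8.21%, 0% and 8.5%) and moved the median of all genes to 0.105, 0.043 and 0.048. Leaving out 1 library gave 54 to 1638, 0 to 475 and 53 to 1827 (0.37% to 11.2%, 0% to 3.25% and 0.361% to 12.5%). With the correction and without C3a replicate 2 there were 1760, 1209 and 1975 of 14613. The members' levels lay far above the floor of 3 counts in all 9 libraries.

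Same-numbered libraries deviated together weakly (correlations -0.041 to 0.17, against -0.142 to 0.081 for libraries of different numbers). The labels state no pairing, so the replicate numbers were not taken as pairs. These correlations do not settle whether replicates were paired. With a replicate block 2, 0 and 0 members and 835, 0 and 1210 genes (5.9%, 0% and 8.55%) were called. With the block and the length and GC correction there were 3, 0 and 0 members and 1640, 1 and 1545 genes (11.6%, 0.00707% and 10.9%).

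The call of Idh2 with C3a was lost with total count scaling (adjusted p = 0.101) and with the 2 groups alone (0.165), and kept in the other 9 of 11 alternatives beside those that only left out a library. Pprc1 kept its call in 11 of 11. Some small log2 fold changes turned sign, none of them called. For C3a against oxy-Hb, Ogdh was 0.007 with the correction and without C3a replicate 2, Slc25a1 was 0.135 with the correction, with or without the block, and 0.148 when C3a replicate 2 was also left out, and leaving out 1 library gave -0.015 to 0.223 for Idh3g and -0.139 to 0.045 for Slc25a1. For C3aRA against oxy-Hb, total count scaling gave -0.043 for Idh3g and Acod1. The correction gave, alone, without C3a replicate 2 and with the block, 0.015, 0.020 and 0.016 for Idh3a, 0.072, 0.079 and 0.071 for Mdh2 and 0.056, 0.062 and 0.056 for Slc25a1, and 0.003 for Sdhd without C3a replicate 2. Leaving out 1 library gave -0.017 to 0.061 for Idh3g, -0.041 to 0.026 for Idh3a, -0.116 to 0.024 for Mdh2 and -0.067 to 0.062 for Acod1. For C3a against C3aRA, total count scaling gave -0.017 for Suclg2 and -0.015 for Idh3b. Idh3b was -0.032 with the correction, -0.119 when C3a replicate 2 was also left out and -0.037 with the block. Dlst was 0.000 without a filter and with the 2 groups alone, 0.006 with the correction, with or without the block, and 0.017 when C3a replicate 2 was also left out. That last setting gave -0.041 for Idh3g, -0.026 for Suclg2, -0.128 for Sdhc and -0.019 for Fh1. Leaving out 1 library gave -0.035 to 0.197 for Idh3g, -0.019 to 0.037 for Suclg2, -0.053 to 0.273 for Sdhb, -0.093 to 0.244 for Sdhc, -0.117 to 0.121 for Idh3b, -0.035 to 0.020 for Dlst, -0.051 to 0.142 for Slc25a1 and -0.027 to 0.017 for Pdha1.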

Other observations

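As a share of all counts, the 9 enzymes held 0.237%, 0.242% and 0.247% in C3a libraries, 0.223%, 0.236% and 0.236% in C3aRA libraries, and 0.232%, 0.232% and 0.210% in oxy-Hb libraries. Without TMM scaling, oxy-Hb replicates 1 and 2 thus lay between the C3aRA values and only oxy-Hb replicate 3 lay below all other libraries.

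Of the 11 markers of microglia and macrophages, 1 was called for C3a against oxy-Hb and 1 for C3a against C3aRA. Of all genes, 3.94% and 6.19% were called in these comparisons, and 9 and 10 of the 11 markers were positive. The called markers, Itgam and Trem2, are described here for that reason. Itgam, an integrin subunit, had 51.9, 91.1 and 55.6 CPM in C3a libraries, 56.4, 53.6 and 48.2 CPM in C3aRA libraries, and 41.6, 37.3 and 44.3 CPM in oxy-Hb libraries. It rose with C3a against oxy-Hb (log2 fold change 0.69 ± 0.18, adjusted p = 0.0498), and its highest value belonged to C3a replicate 2, as it did for Suclg1, Fh1 and Idh2. Without that library the log2 fold change of Itgam was 0.38 (adjusted p = 0.0250), and the Itgam call was lost without any 1 of the 3 C3aRA or 3 oxy-Hb libraries (adjusted p 0.0789 to 0.192). All C3aRA libraries of Itgam also lay above all oxy-Hb libraries. That log2 fold change was 0.36 (adjusted p = 0.636), and the same without C3a replicate 2 (adjusted p = 0.0426), beside 3.25% of all genes called. Trem2, a microglial lipid receptor, rose with C3a against C3aRA (0.44 ± 0.12, adjusted p = 0.0495), and by 0.28 without C3a replicate 2 (adjusted p = 0.0215). The Trem2 call was lost without C3a replicate 3, any C3aRA library or any oxy-Hb library (adjusted p 0.0745 to 0.218).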
